A study of Mus musculus with 12 samples.

Results

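The loss of GPR120 in skeletal muscle on a normal diet was examined. The 3 arrays of GPR120 KO mice on normal diet were set against the 3 arrays of wild-type (WT) mice on normal diet, which is 6 of the 12 arrays of the series. The arrays were picked by their source labels, and each difference is KO minus WT on the log2 scale. All mice were aged 16 weeks and their strain was a mix of 129/Sv and C57BL/6. Each array held muscle RNA of 1 mouse. The WT group ate the normal diet and is labelled wild-type. The KO group ate the same diet and is labelled GPR120 KO, with no further allele named and no cell type restriction given. The other 6 arrays, 3 of WT and 3 of KO mice on a high fat diet, entered the shared estimate of spread and are used for comparison. The labels number the mice of each group in a separate range, so a cohort or litter effect and the genotype cannot be told apart. The sources used here do not give the muscle sampled or the sex of the mice. Sex is read from sex-linked genes below.

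GPR120, encoded by Ffar4, is a G protein-coupled receptor on the cell surface that is activated by long-chain fatty acids. It couples to Gq-type G proteins and recruits beta-arrestin 2, a pathway best known for anti-inflammatory signalling in macrophages and for effects on insulin action in adipocytes. Skeletal muscle burns fatty acids and glucose, stores triglyceride droplets, and holds fast and slow fibres together with macrophages, fibroblasts, endothelium, nerve and some fat cells. All of these contribute RNA to a whole-muscle sample.

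Ffar4 could not check the genotype labels. Its only probe set read -0.19, 2.26 and -1.39 in the WT mice and 3.22, 3.88 and 0.33 in the KO mice, at the 20.1th percentile of probe sets. The groups overlapped, the KO mean of 2.48 was above the WT mean of 0.23, and the probe set lay under the signal filter of 3.78 that all tested genes had to exceed. The sources used here do not say where it lies relative to the deletion. The muscle label was borne out by Acta1, the skeletal muscle actin, at 13.51 to 13.80 and Ckm, the muscle creatine kinase, at 13.33 to 13.70, both in the brightest percentile. Alb, a liver marker, read 3.34 to 4.54. Adipoq, a fat cell marker, read 8.95 to 11.32, at the 97.1th percentile of probe sets with a gene name. The Y-linked gene Eif2s3y read 8.96, 8.87 and 9.06 in the WT mice and 9.20, 8.93 and 9.23 in the KO mice. It did not differ by genotype beyond its spread (difference 0.15, limma adjusted p = 0.714). The probe sets of Xist, a transcript of female cells, had means of 0.35, 1.19 and 3.32 over all arrays, under the filter of 3.78. By these genes the mice of both genotypes read as male.

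Control probe sets of the 6 arrays overlapped between the genotypes, in part narrowly. For the Gapdh 3′ minus 5′ signal the highest WT value was -0.241 and the lowest KO value -0.242. For the poly-A spikes these were 6.91 and 6.89. RNA integrity, read as the log2 signal at 3′ minus that at 5′ averaged over the actin and Gapdh control probe sets, was -0.02 ± 0.09 in WT and 0.07 ± 0.06 in KO (SD, n = 3; exact permutation test, two-sided, p = 0.2). The poly-A spikes read 6.70 ± 0.22 in WT and 6.95 ± 0.08 in KO (SD, n = 3; exact permutation test, two-sided, p = 0.2). With 3 mice against 3 the smallest p such a test allows is 0.1, and 6 control measures were tested. Array medians lay between 3.96 and 4.07 in WT and between 3.87 and 4.11 in KO, the lowest being KO replicate 3. Precision is limited throughout by having 3 arrays a group.

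Few genes were called as differing between the genotypes on the normal diet after adjustment for the number tested. Of 11345 genes tested, 47 had a Benjamini-Hochberg adjusted p under 0.05 in limma. In KO 33 were higher and 14 lower, which is 0.414% of genes (0.291% higher and 0.123% lower). Among the 47, 39 differed by at least 1.5-fold and 19 by at least 2-fold, and the median absolute log2 difference was 0.87. At an unadjusted p of 0.05, 11.3% of genes passed. The values of the 3 KO and 3 WT mice did not overlap for 17% of genes, 9.25% with KO higher and 7.72% with KO lower, and all 47 called genes were among them. The median difference over all genes was 0.02.

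The count changed when single mice were left out. Each such fit also had a smaller group, and the part of that was not tested. The count was 9 without WT replicate 2, 15 without WT replicate 3 and 68 without WT replicate 1. It was 15 without KO replicate 1, 9 without KO replicate 2 and 9 without KO replicate 3. It was 25 when that integrity measure entered the model as a covariate. When the 6 normal diet arrays were fitted alone it was 50, of which 48% were higher in KO against 70.2%.

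**Figure D1:**
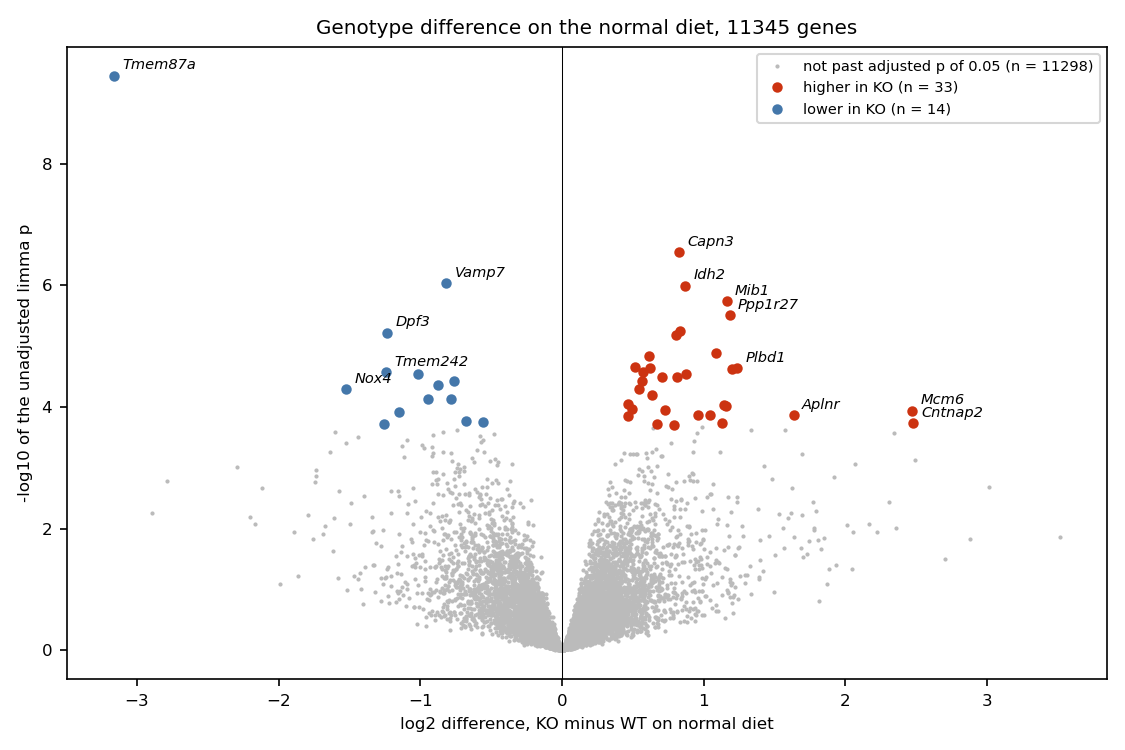
Each point is 1 of 11345 genes, with the log2 difference (KO minus WT on normal diet) on the x axis and -log10 of the unadjusted limma p on the y axis. Red points (33) are higher and blue points (14) lower in KO at an adjusted p of 0.05, and Tmem87a stands farthest from the rest at a log2 difference of -3.16.

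The largest change was in Tmem87a, a membrane protein of the Golgi apparatus. It read 8.25, 8.31 and 8.21 in the WT mice and 4.88, 5.13 and 5.28 in the KO mice. No KO value came near a WT value, and the gene was 8.96-fold lower in KO (log2 difference -3.16 ± 0.20 SE, adjusted p = 4.03e-06). On the high fat diet both genotypes read low, 5.36 to 5.86 in WT and 5.12 to 5.61 in KO. The genotype difference was more negative on the normal diet, by -2.92 on the log2 scale (interaction adjusted p = 0.000836). Among 47 called genes, Tmem87a, Vamp7 and Ppp1r27 had an adjusted p under 0.05 in every alternative that tested them.

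Close to Tmem87a on chromosome 2 lies Capn3, the calcium-dependent protease of muscle that is mutated in a limb-girdle muscular dystrophy. No protein-coding gene lies wholly between them in RefSeq on GRCm38.p6, but genes that overlap either were not counted. Capn3 read 9.37, 9.28 and 9.37 in WT and 10.19, 10.16 and 10.15 in KO. It rose in KO while Tmem87a fell (log2 difference 0.83 ± 0.09 SE, adjusted p = 0.00163). This came from the brightest Capn3 probe set, of a type that can cross-hybridise. A second probe set, at 9.53 over all arrays, read 9.34 in both genotypes with a difference of 0.01, and the call was lost with the mean of the gene's probe sets (0.42, adjusted p = 0.127). Oip5os1, a long non-coding RNA, is also called and lies within 1 Mb of both. It read 11.74, 11.57 and 11.55 in WT and 12.18, 12.14 and 12.08 in KO (log2 difference 0.52, adjusted p = 0.0173). Its other probe sets gave 0.13 and 0.32.

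The promoters of Tmem87a and Capn3 are shown because the genes moved in opposite directions. Those of Idh2 and Myog are shown because both are called genes described further on, a metabolic enzyme and a myogenic factor. Each run is the 250 bases upstream of the 5′-most RefSeq start on GRCm38.p6, read 5′ to 3′ on the gene's strand, with E-box letters (CANNTG, the same on both strands) in capitals. The windows are chr2:120404117-120404366 (minus strand) for Tmem87a, chr2:120463343-120463592 (plus) for Capn3, chr7:80115351-80115600 (minus) for Idh2 and chr1:134289754-134290003 (plus) for Myog.
Tmem87a: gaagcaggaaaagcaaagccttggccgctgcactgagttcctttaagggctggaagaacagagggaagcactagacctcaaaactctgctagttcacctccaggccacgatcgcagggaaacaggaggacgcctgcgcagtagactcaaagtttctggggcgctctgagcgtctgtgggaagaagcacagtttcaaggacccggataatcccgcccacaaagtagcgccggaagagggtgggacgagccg
Capn3: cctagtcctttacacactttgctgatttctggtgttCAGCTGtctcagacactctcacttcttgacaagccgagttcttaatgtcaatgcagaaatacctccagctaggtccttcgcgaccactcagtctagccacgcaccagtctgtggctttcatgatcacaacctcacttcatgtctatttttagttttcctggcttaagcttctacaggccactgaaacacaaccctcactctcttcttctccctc
Idh2: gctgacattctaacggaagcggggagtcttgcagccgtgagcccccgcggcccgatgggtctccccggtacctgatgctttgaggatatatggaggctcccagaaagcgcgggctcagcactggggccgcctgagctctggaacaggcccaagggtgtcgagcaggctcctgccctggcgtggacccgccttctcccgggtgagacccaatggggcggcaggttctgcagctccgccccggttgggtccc
Myog: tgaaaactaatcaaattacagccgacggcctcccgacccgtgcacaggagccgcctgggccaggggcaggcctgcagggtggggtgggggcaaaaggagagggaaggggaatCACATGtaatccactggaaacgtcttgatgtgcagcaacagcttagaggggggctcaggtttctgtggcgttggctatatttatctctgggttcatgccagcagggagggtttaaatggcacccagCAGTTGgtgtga
Tmem87a and Idh2 hold 0 E-boxes in this window, Capn3 holds 1 and Myog 2. E-boxes are the sites bound by myogenic factors such as myogenin itself, but their letters are common. They occur in 66.1% of the 27025 such promoters counted and in 57.4% of the 9197 of these matched to tested genes. Not every chromosome entered these counts, so the shares are not genome-wide and some tested and called genes are absent from them. Among called genes with a counted promoter, E-boxes were in 19 of 27 (70.4%) higher in KO and in 6 of 13 (46.2%) lower, and these shares were not tested. The TATA letters TATAAA, searched on both strands, were in 13% of all promoters counted and 6.94% of those of tested genes, in 3 of the 27 (11.1%) and in 0 of the 13.

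**Figure D2:**
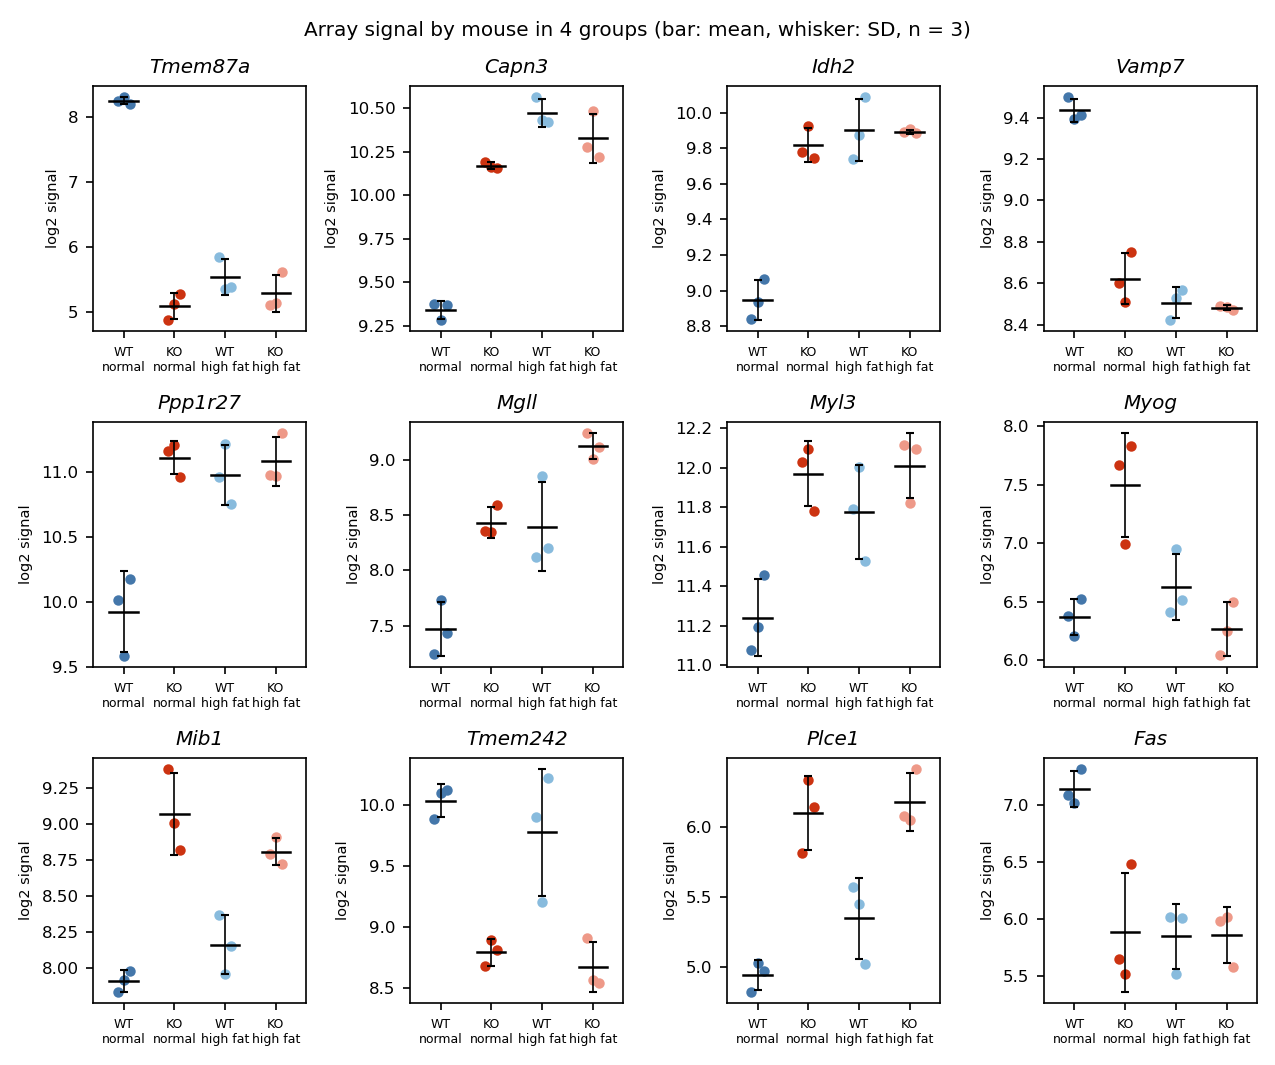
Log2 array signal (y axis) of 12 genes in each mouse of the 4 groups (x axis), with a bar for the group mean and a whisker for the SD (n = 3). Tmem87a, Capn3, Idh2 and Vamp7 set the WT mice on normal diet apart from the other 9, while Mib1, Tmem242 and Plce1 separate the genotypes on both diets.

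Idh2, Me3 and Adhfe1, which encode mitochondrial enzymes, were called higher in KO. Idh2, the mitochondrial isocitrate dehydrogenase that makes NADPH, read 8.84, 8.94 and 9.06 in WT and 9.78, 9.93 and 9.75 in KO. It was 1.83-fold higher in KO (log2 difference 0.87 ± 0.10 SE, adjusted p = 0.00286). Its second probe set was dim, at 5.13, with a difference of -0.02, and the call was lost with the mean of both (0.42, adjusted p = 0.373). Me3, the mitochondrial malic enzyme that also makes NADPH, read 7.92, 7.83 and 7.73 in WT and 8.30, 8.54 and 8.55 in KO (log2 difference 0.64, adjusted p = 0.0261). Adhfe1, a mitochondrial transhydrogenase of hydroxy acids, read 7.60, 7.01 and 7.02 in WT and 8.58, 8.43 and 8.21 in KO. Its rise was 2.30-fold (adjusted p = 0.0173), and a second probe set showed 1.32 on the log2 scale. In each of these genes the lowest KO mouse was above the highest WT mouse.

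Further called genes encode mitochondrial proteins. Mrps14 and Mrps34, subunits of the mitochondrial ribosome, were 0.46 and 0.47 higher (adjusted p = 0.0394 and 0.0334). Nudt9, an ADP-ribose hydrolase, was 0.57 higher (adjusted p = 0.0173). Tmem242, a mitochondrial membrane protein needed to assemble ATP synthase, went the other way. It read 9.88, 10.10 and 10.12 in WT and 8.68, 8.89 and 8.81 in KO, a 2.37-fold decrease (log2 difference -1.24 ± 0.20 SE, adjusted p = 0.0173). A second, dim probe set of Tmem242 at 3.88 differed by 0.93 in the opposite direction, and the mean of both differed by -0.16 (adjusted p = 0.871).

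As a list, the citric acid cycle and mitochondrial biogenesis genes had 1 of 24 tested members past the threshold, Idh2, and 18 of 24 above 0, where 53.3% of all genes lay. Their median difference was 0.12, against 0.02 over all genes, and 10 had KO above WT without overlap, against 9.25% of all genes, and 0 the reverse. Ppargc1b and Ppargc1a, coactivators that drive mitochondrial biogenesis, were at 0.60 (adjusted p = 0.308) and 0.50 (adjusted p = 0.402). Of 30 fatty acid uptake and oxidation genes 0 passed, 23 were above 0 and 12 had KO above WT without overlap, against the same 9.25%, with a median of 0.17. Fabp3, the fatty acid binding protein of muscle, was at 0.44 (adjusted p = 0.0778) and Decr1, a dienoyl-CoA reductase, at 0.42 (adjusted p = 0.0884). Oxidative phosphorylation had 0 of 44 past the threshold, 35 above 0 and a median of 0.06, with Ndufb3 at 0.25 (adjusted p = 0.226). Glycolysis and glycogen had 0 of 23 past and a median of -0.05, with Ldhb, the lactate dehydrogenase subunit of oxidative fibres, at 0.38 (adjusted p = 0.160). Over the alternatives the medians stayed between 0.07 and 0.16 for the citric acid cycle list, 0.13 and 0.21 for fatty acid oxidation and 0.04 and 0.11 for oxidative phosphorylation.

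Lipid enzymes that act on the same substrate moved in opposite directions. Mgll, the lipase that splits monoglycerides, read 7.24, 7.73 and 7.44 in WT and 8.36, 8.35 and 8.60 in KO. It rose 1.95-fold (log2 difference 0.96 ± 0.18 SE, adjusted p = 0.0394), and its other probe sets above the filter gave 0.60 and 0.63. Abhd6, a second monoglyceride lipase, read 7.38, 7.57 and 7.47 in WT and 6.58, 6.83 and 6.72 in KO. It fell 1.70-fold (log2 difference -0.76 ± 0.13 SE, adjusted p = 0.0183), and its other probe set gave -0.76 as well. Plbd1, a phospholipase B-like protein of lysosomes, rose 2.36-fold (adjusted p = 0.0173), from 6.12 to 6.68 in WT to 7.49 to 7.75 in KO. Cav1, the coat protein of caveolae, read 10.32, 10.36 and 10.42 in WT and 10.76, 10.93 and 11.09 in KO (log2 difference 0.56, adjusted p = 0.0183). In the lists, Mgll was the only call among 16 lipid droplet and lipolysis genes and among 20 lipogenesis genes, with medians of 0.00 and 0.04.

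Slow fibre genes leaned towards KO. Myl3, the essential light chain of slow muscle myosin, read 11.08, 11.19 and 11.46 in WT and 12.03, 12.10 and 11.78 in KO (log2 difference 0.73 ± 0.14 SE, adjusted p = 0.0370), and its other probe sets gave 0.92 and 0.62. It was 1 of 15 slow fibre genes past the threshold. Of the 15, 13 were above 0. KO lay above WT without overlap for 8, against 9.25% of all genes, and below for 0. The list's median was 0.34, and it stayed between 0.20 and 0.38 over the alternatives. Others of the 8 were Myl2, the slow regulatory light chain, at 0.52, Tnni1, slow troponin I, at 0.47 and Myh7, the slow myosin heavy chain, at 0.42 (adjusted p = 0.0779, 0.308 and 0.206). The summed linear signal of the list was 39890 to 49150 in WT and 49400 to 53370 in KO. The 15 fast fibre genes had 0 past the threshold and a median of -0.01, with Casq1, the fast calsequestrin, at 0.17 (adjusted p = 0.403).

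Muscle structure and muscle differentiation genes added single calls. Myog, the myogenic transcription factor myogenin, read 6.38, 6.21 and 6.52 in WT and 7.67, 6.99 and 7.83 in KO. It rose 2.19-fold (log2 difference 1.13 ± 0.22 SE, adjusted p = 0.0466), the only call among 21 denervation and regeneration genes, whose median was 0.07. Ppp1r27, a regulatory subunit of protein phosphatase 1, read 10.01, 9.58 and 10.18 in WT and 11.16, 11.20 and 10.96 in KO, a 2.27-fold rise (adjusted p = 0.00589). Ppp1r11, an inhibitor of the same phosphatase, read 8.21, 8.61 and 8.14 in WT and 7.42, 7.34 and 7.57 in KO, a 1.84-fold fall (adjusted p = 0.0202). Capn3 was the only call among 28 sarcomere and excitation-contraction coupling genes, with a median of 0.06.

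Other called genes had varied roles. Vamp7, a SNARE protein of late endosomes, read 9.50, 9.40 and 9.41 in WT and 8.60, 8.51 and 8.75 in KO (log2 difference -0.82 ± 0.10 SE, adjusted p = 0.00286), and its second probe set gave -1.44. Nox4, an NADPH oxidase that makes hydrogen peroxide, read 6.07, 6.92 and 6.33 in WT and 4.92, 4.72 and 5.11 in KO, a 2.88-fold fall (adjusted p = 0.0222). Gstm2, a glutathione transferase of muscle, read 8.37, 7.87 and 8.18 in WT and 9.24, 9.25 and 9.19 in KO, a 2.12-fold rise (adjusted p = 0.0146), and was the only call among 25 redox genes. Mib1, a ubiquitin ligase that acts on Notch ligands, read 7.83, 7.92 and 7.98 in WT and 9.38, 9.01 and 8.82 in KO. Its rise was 2.24-fold (adjusted p = 0.00416), and it was lost with the mean of its 3 probe sets (0.78, adjusted p = 0.287). Dpf3, a chromatin remodelling subunit, read 7.16, 7.23 and 7.21 in WT and 5.86, 6.07 and 5.98 in KO (log2 difference -1.23, adjusted p = 0.00834). Its second, dimmer probe set gave -0.37. Rasd2, a small GTPase of the Ras family, read 7.25 to 7.49 in WT and 8.34 to 8.69 in KO (1.14, adjusted p = 0.0334).

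Several large differences rested on dim or varied signals. Cntnap2, a neurexin-like adhesion protein, read 4.40, 3.70 and 3.01 in WT and 6.32, 6.04 and 6.20 in KO (log2 difference 2.48 ± 0.49 SE, adjusted p = 0.0466). Of its WT values 2 of 3 lay under the filter level of 3.78, so its difference is poorly measured, and its other probe sets, both under the filter, gave -0.37 and 0.83. Mcm6, a subunit of the replicative helicase, read 1.76 to 3.36 in WT and 5.39, 5.03 and 5.14 in KO (2.47 ± 0.46 SE, adjusted p = 0.0370). All WT values of Mcm6 lay under the filter level of 3.78, which leaves this difference poorly measured as well, and its second probe set gave 0.75. Bhlhb9 read 4.77 to 4.87 in WT and 5.75 to 5.95 in KO (1.04, adjusted p = 0.0394). Aplnr, the apelin receptor of endothelium, read 6.02, 5.41 and 5.08 in WT and 6.91, 7.11 and 7.41 in KO. It rose 3.11-fold (adjusted p = 0.0394), the only call among 18 endothelial genes, whose median was 0.20.

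The remaining decreases were of Npnt, nephronectin of the extracellular matrix (-1.15, adjusted p = 0.0385), Nup210, a nuclear pore protein (-1.01, adjusted p = 0.0173), the non-coding RNA Snhg16 (-0.94, adjusted p = 0.0288), Ms4a4d (-0.67, adjusted p = 0.0466) and the kinase Hipk2 (-0.56, adjusted p = 0.0466). Ifi30, a thiol reductase of antigen processing, fell by 0.78 (adjusted p = 0.0288). For Hipk2, 4 other bright probe sets fell between -0.72 and -0.48, and 2 dim ones gave 0.10 and 0.32. Among the remaining increases was Spsb3, a SOCS box protein (0.87, adjusted p = 0.0173), with 1 protein-coding gene wholly between it and Mrps34 on chromosome 17. Further increases were Luc7l3, a splicing factor (0.49, adjusted p = 0.0370), Tmx2, a thioredoxin-related membrane protein (0.67, adjusted p = 0.0466), and the unnamed transcript A930005H10Rik (0.83, adjusted p = 0.00834). Calls outside the naming rule, mentioned after their values were seen, were Zfp943 (0.80), Zfp462 (0.81), Clmp (0.79), Gprc5b (0.70), Ccser2 (0.62), Dynll1 (0.62) and Fyco1 (0.55), together with Mrps34 above. Over the 28 called genes with a further probe set above the filter, 37 of 43 such probe sets had the sign of the brightest one and 6 had the opposite sign, in Hipk2, Idh2, Luc7l3, Tmem242 and Tmx2. A shared sign is not a shared size. Further probe sets gave 0.01 in Capn3, 0.09 in Gprc5b, 0.09 and 0.19 in Ccser2 and 0.18 in Fyco1, while others were close to the brightest, such as -0.76 in Abhd6. In Tmx2 the second probe set, at 7.33, gave -0.01. The other 19 called genes rest on 1 probe set.

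Near the deleted gene itself, Fas and Plce1 were called. Of 148 tested genes within 10 Mb of Ffar4 on chromosome 19 these were the 2 past the threshold, 1.35% against 0.414% of all genes, and the median difference of the 148 was 0.01. Fas, the death receptor, read 7.08, 7.02 and 7.31 in WT and 5.65, 5.51 and 6.48 in KO (log2 difference -1.26 ± 0.25 SE, adjusted p = 0.0466). Plce1, phospholipase C epsilon, read 4.82, 5.03 and 4.97 in WT and 5.81, 6.34 and 6.15 in KO (1.16 ± 0.21 SE, adjusted p = 0.0334). One fell and one rose, and KO and WT values of Plce1 also did not overlap on the high fat diet, at 6.05 to 6.42 in KO and 5.02 to 5.57 in WT. The part of strain background around the locus was not tested.

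Other fatty acid receptors and the known effectors of GPR120 held no call. Cd36, the fatty acid translocase, was at 0.20 (adjusted p = 0.613) and Ffar2, a receptor for short-chain fatty acids, at -0.26 (adjusted p = 0.909). Gpr84, Hcar1 and Hcar2 stayed under the filter, and no single-gene probe set carried the names Ffar1, Ffar3 or Gpr119. Of 21 tested effector genes, which include G proteins, arrestins, phospholipases and kinases, 0 passed and 16 were above 0, with a median of 0.13. Itpr2, a calcium release channel of the endoplasmic reticulum, was at 0.77 (adjusted p = 0.173), Prkd1, protein kinase D, at 0.41 (adjusted p = 0.411) and Arrb1, beta-arrestin 1, at 0.26 (adjusted p = 0.635). Arrb2, beta-arrestin 2, through which the receptor signals, was at 0.06 (adjusted p = 0.953).

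Insulin signalling genes held no call either. Of 23 tested 0 passed, 18 were below 0 and the median was -0.13. Insr, the insulin receptor, was at -0.45 (adjusted p = 0.0922) and Akt2, the insulin-responsive kinase of muscle, at -0.35 (adjusted p = 0.243), both with KO below WT in every mouse. Slc2a4, the insulin-regulated glucose transporter, was at -0.09 (adjusted p = 0.883). KO values lay below WT without overlap for 4 of the 23, against 7.72% of all genes, and above for 1, against 9.25%. That 1 was Irs2, at 0.56 (adjusted p = 0.342).

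Glucocorticoid response genes were lower by list median, with no single call. Of 19 tested 0 passed, 15 were below 0, the median was -0.28, and 6 had KO below WT without overlap, against 7.72% of all genes, and 0 the reverse. Cebpb, a transcription factor induced by glucocorticoids, was at -0.48 (adjusted p = 0.0556) and Zbtb16, another such factor, at -0.61 (adjusted p = 0.278). The list mean of each mouse, relative to the WT mean, was -0.25, 0.22 and 0.03 in WT and -0.25, -0.30 and -0.29 in KO. WT replicate 1 read about the same as the KO mice, and the other WT mice read higher. FoxO and atrophy genes had 0 of 18 past, 15 below 0 and a median of -0.15. Bnip3, a mitophagy receptor, was at -0.31 (adjusted p = 0.278), and the muscle ubiquitin ligases Trim63 and Fbxo32 were at -0.11 and -0.06 (adjusted p = 0.777 and 0.959).

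Macrophage and inflammation genes had the lowest median of the lists with 5 or more tested members, at -0.54, although 0 of 25 passed the threshold. Of the 25, 22 were below 0, and 12 had KO below WT without overlap and 0 the reverse, against 7.72% of all genes with KO lower. C1qb, a complement subunit made by macrophages, was at -0.75 (adjusted p = 0.169) and the chemokine Ccl9 at -0.96 (adjusted p = 0.197). Lyz2, macrophage lysozyme, was at -0.73 (adjusted p = 0.290) and Mrc1, the mannose receptor of resident macrophages, at -0.59 (adjusted p = 0.328). Cd68 and Csf1r, which also mark macrophages, were at -0.08 and -0.03 (adjusted p = 0.965 and 0.980). The summed linear signal of the list was 9121 to 10590 in WT and 6531 to 7437 in KO, with no overlap, and the list median stayed between -0.59 and -0.44 over the alternatives. The highest member was the chemokine Ccl2, at 1.81 (adjusted p = 0.301). In whole muscle, fewer cells of a type and less RNA per cell cannot be told apart.

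**Figure D3:**
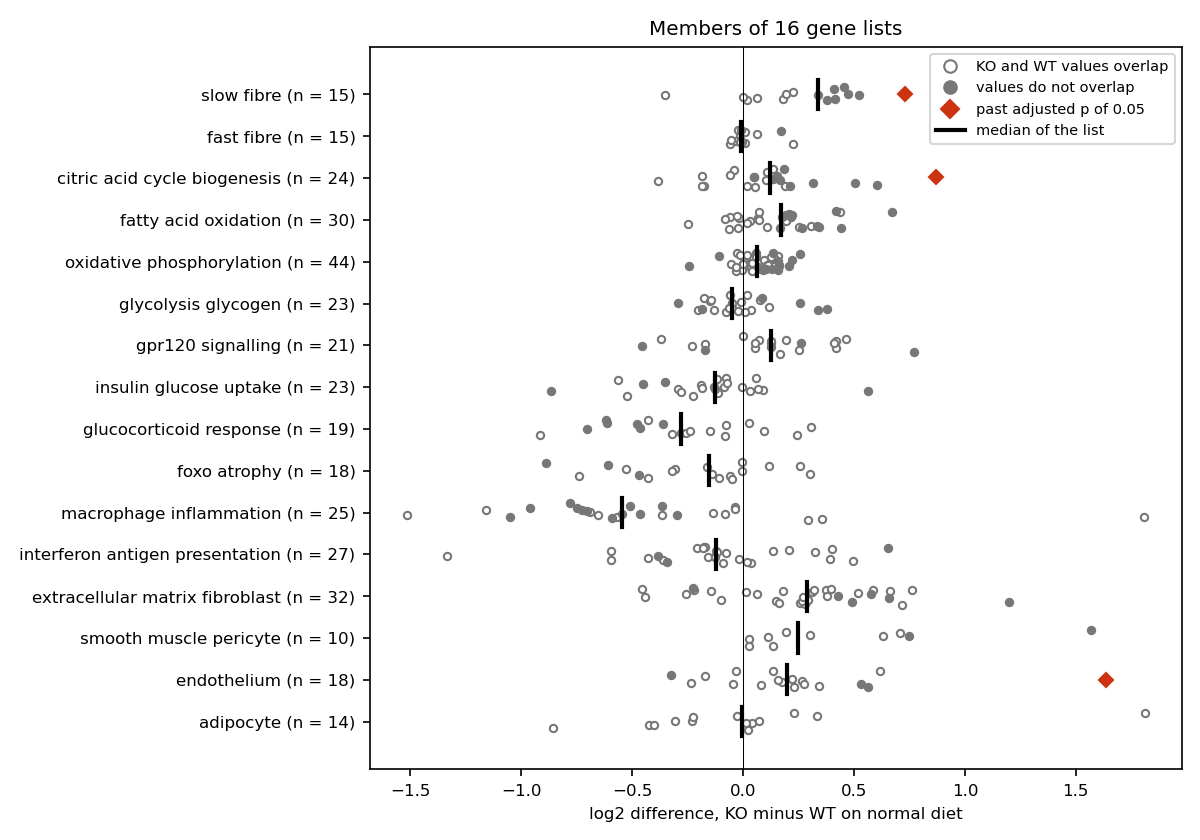
Each point is 1 tested member of a gene list (rows, n members each), placed by its log2 difference, KO minus WT on normal diet. Filled points have no overlap between KO and WT, diamonds pass an adjusted p of 0.05, and the black bar is the list's median, which ranges here from -0.54 for macrophage genes to 0.34 for slow fibre genes.

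Markers of other cell types did not all move with the macrophage list. Extracellular matrix and fibroblast genes had 0 of 32 past, 25 above 0 and a median of 0.29, with a summed signal of 18370 to 20540 in WT and 21480 to 23700 in KO. Col1a1, a fibrillar collagen, was at 0.58 (adjusted p = 0.330). Smooth muscle and pericyte genes had 0 of 10 past and 10 above 0, with Acta2, smooth muscle actin, at 0.75 (adjusted p = 0.143). Schwann cell and nerve genes had 0 of 8 past and a median of 0.25, with summed signals of 1017 to 1380 in WT and 1567 to 1716 in KO. Adipocyte genes had 0 of 14 past, 7 above 0 and a median of -0.01, and their summed signals of 28660 to 30840 in WT and 27480 to 33630 in KO overlapped. The adipocyte list mean of each mouse, relative to the WT mean, was -0.05, 0.18 and -0.13 in WT. In KO it was -0.40, -0.06 and 0.47, so the KO mice varied widely. Mast cell genes had 0 of 5 past, 2 above 0 and a median of -0.15, and ranged from the tryptase Tpsb2 at -1.27 (adjusted p = 0.325) to 0.68. The part of cell composition in the called genes was not tested.

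**Figure D4:**
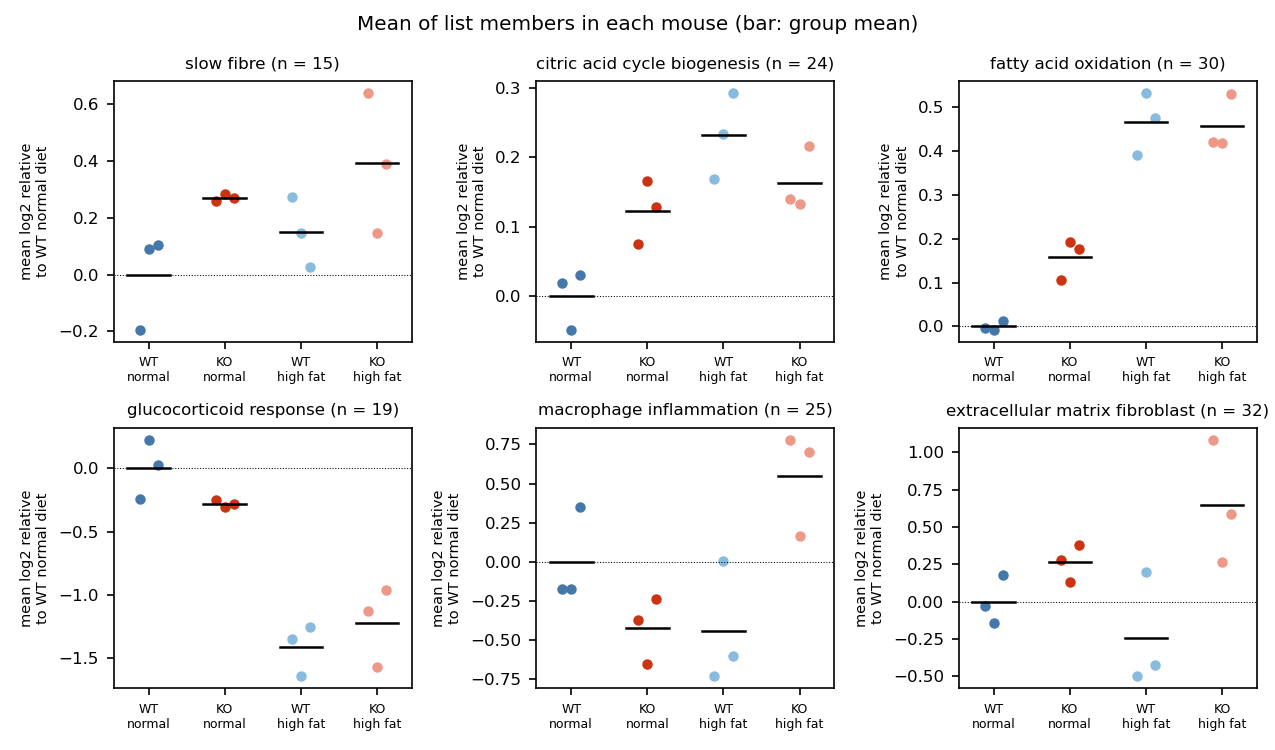
Mean log2 signal of the tested members of 6 gene lists in each mouse (points), relative to the mean of the WT mice on normal diet, with the group mean as a bar. On normal diet the KO mice lie between 0.26 and 0.28 for slow fibre genes and between -0.65 and -0.24 for macrophage genes, where the WT mice span -0.18 to 0.35.

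Across the 43 lists, 9 held a called member, each with 1 gene higher in KO, and 0 held a called member lower in KO. The lists cover 779 tested genes, of which 8 were called, against 0.414% of all genes. They were chosen with earlier results of these data known, so nothing is read from that count. The interferon and antigen presentation list had 0 of 27 past and a median of -0.12. Heat shock genes had 0 of 27 and a median of 0.05, unfolded protein and Atf4 genes 0 of 26 and 0.03, and immediate early genes 0 of 26 and 0.00. Circadian genes had 0 of 17 and a median of 0.00, with Rora, a nuclear receptor of the clock, at -0.48 (adjusted p = 0.0846).

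On the high fat diet the same contrast called 83 genes, 0.732% of those tested (0.511% higher and 0.22% lower in KO), and shares no arrays with the normal diet contrast. That count was 237 without high fat diet WT replicate 2, and 15 to 25 without WT replicate 1 or 3 or KO replicate 1 or 3 of that diet. Tmem242, Cav1 and Nudt9 passed on both diets with the same sign, which is 6.38% of the normal diet calls and 3.61% of the high fat diet calls. Tmem242 was at -1.24 on normal and -1.11 on high fat diet (adjusted p = 0.0173 and 0.0277), Cav1 at 0.56 and 0.87 (0.0183 and 0.00174) and Nudt9 at 0.57 and 0.50 (0.0173 and 0.0306). Of the 47 genes, 33 had the same sign on the high fat diet. Over all 11345 genes the differences on the 2 diets correlated with r = 0.165, as a description across genes, which are not independent replicates.

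For 13 of the 47 genes the 6 KO and 6 WT mice did not overlap over both diets, against 1.02% of all genes. Higher in KO were Bhlhb9, Ccser2, Gprc5b, Mib1, Nudt9, Plce1, Spsb3 and Zfp943, and lower were Hipk2, Npnt, Nup210, Ppp1r11 and Tmem242. The mice on normal diet also made the calls, so the share is a description. Npnt shows the pattern, with normal diet values of 7.22 to 7.79 in KO against 8.40 to 8.88 in WT, and high fat diet values of 7.73 to 8.17 against 8.57 to 9.42.

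Another pattern overlapped with this one, and Bhlhb9, Ccser2, Gprc5b, Nudt9, Nup210 and Zfp943 showed both. For 33 of the 47 genes, 24 higher and 9 lower in KO, the 3 WT mice on normal diet lay outside the range of the other 9 mice, against 4.94% of all genes. For 10 genes it was the KO mice on normal diet that lay outside, against 1.90% of all genes. Since the calls compare exactly these groups, both shares are descriptions. Myog was one of the 10: its KO mice on normal diet read at least 6.99, and the KO mice on high fat diet read 6.04, 6.25 and 6.50. Vamp7 was one of the 33, with WT mice on normal diet at 9.40 to 9.50 and 8.42 to 8.75 in all other mice.

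The difference between the diets was tested directly by the interaction, which called 16 genes, 0.141% of those tested (0.0617% above 0 and 0.0793% below). Of the 47 genes 7 were among them: Tmem87a and Vamp7, lower in KO on the normal diet, and Capn3, Idh2, Me3, Oip5os1 and A930005H10Rik, higher. On the high fat diet these 7 had differences between -0.34 and -0.01. The number of interaction calls fell to between 4 and 8 when WT replicate 2 or 3 or any KO mouse of the normal diet was left out, or when WT replicate 1 or 3 or KO replicate 1 or 3 of the high fat diet was. It was 31 when high fat diet WT replicate 2 was left out. Tmem87a kept an interaction adjusted p under 0.05 in every alternative that tested its interaction.

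**Figure D5:**
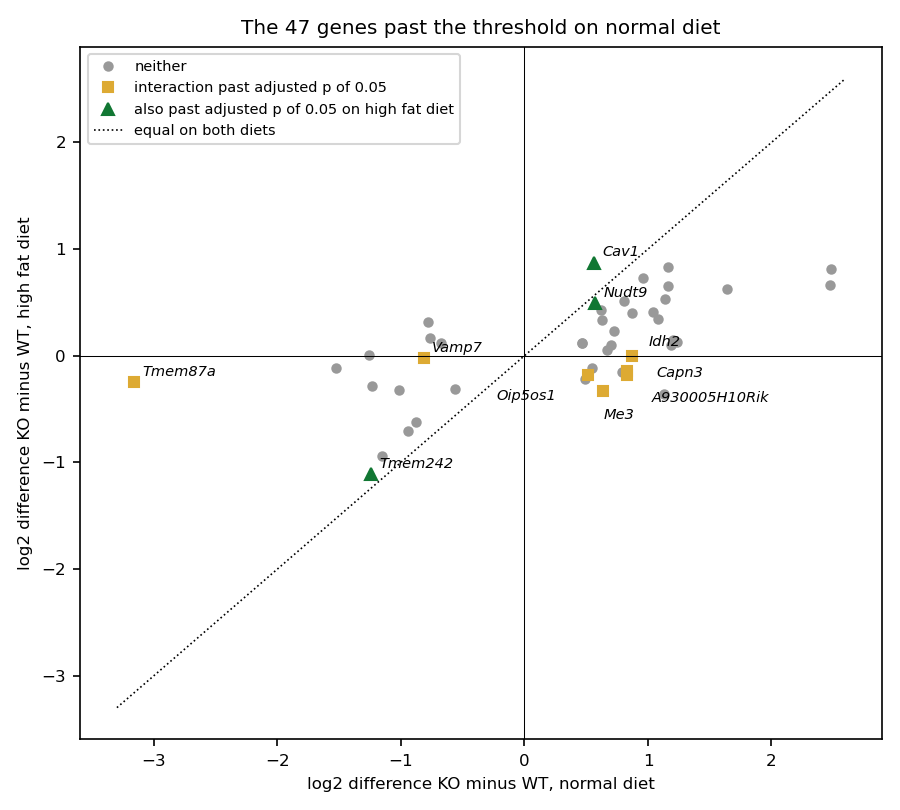
The 47 genes called on normal diet, with their log2 difference KO minus WT on normal diet (x axis) and on high fat diet (y axis), and a dotted line where both are equal. Green triangles (3) also pass on high fat diet, yellow squares (7) pass the interaction, and Tmem87a is at -3.16 on normal and -0.25 on high fat diet.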

How the data were processed

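Muscle RNA of 12 mice was measured on 12 one-colour Affymetrix arrays. Per the submitters' processing notes the authors used MAS5, and the deposited log2 signals are its output on a log scale (version not given in the sources used here). They were used as deposited. Of 45101 probe sets, 64 controls were removed and 34945 of the rest carried a single gene symbol, taken from GEO's platform annotation. Of these, 34741 matched a RefSeq gene by Entrez ID, and 0 symbols differed from RefSeq's. Probe sets with a mean log2 value above the median of 3.78 (13.8 on the linear scale) were kept, and the brightest per symbol stood for its gene. One linear model over the 4 groups was fitted with limma (version 3.58.1, R 4.3.3). Variances were moderated by empirical Bayes along an intensity trend, with 8 residual degrees of freedom and 5.42 from the prior. Each contrast's p-values over 11345 genes received the Benjamini-Hochberg adjustment, with calls at 0.05, and differences are given on the log2 scale, with SE. Python 3.11.15 (pandas 2.3.3, numpy 2.4.6, matplotlib 3.10.9) made the tables and figures.

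The gene lists, the naming rule and the alternatives were chosen with earlier results of these data known. The rule named fatty acid receptors, up to 15 non-overlapping calls per direction with the largest difference, up to 6 called members of each list or else the 2 with the smallest p, calls within 10 Mb of Ffar4 or in groups of 3 within 1 Mb, up to 8 interaction calls per direction, calls on both diets, sex-linked genes, and calls with a disagreeing probe set. Other list members named beside them illustrate their list and were picked with their values in view. The fit was tested on simulated data for this contrast with 11345 genes: it recovered 25.4% of 1.5-fold, 58.2% of 2-fold and 86.4% of 4-fold changes and made 4 false calls. The simulation changed 67, 67 and 66 genes and drew normal noise independently for each gene, with no effect shared by an array. Recovery and false calls in the real arrays can differ from these values. The labels give no pairing and no batch. Whether the mice of a group came from separate litters is not given. The limma p-values set each difference against a spread between mice that is shared over the 4 groups, and cannot tell a litter from the genotype.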

Additional observations from a re-analysis of the deposited data

Results flagged for a closer look

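For 16 genes the genotype difference on the normal diet differed from that on the high fat diet in a limma interaction test (adjusted p under 0.05). The interaction below is the difference on normal diet minus that on high fat diet, on the log2 scale. Among genes called on the normal diet it was -2.92 for Tmem87a, -0.79 for Vamp7, 0.97 for Capn3, 0.88 for Idh2, 0.97 for Me3, 0.70 for Oip5os1 and 1.01 for A930005H10Rik.

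The other genes did not pass on the normal diet alone. Lgals3, the macrophage lectin galectin-3, had an interaction of -3.06, with -0.78 on normal diet (adjusted p = 0.352) and 2.28 on high fat diet (adjusted p = 0.00539). Gpnmb, a glycoprotein of lysosome-rich macrophages, had -2.15, and Ctss, the lysosomal protease cathepsin S, had -2.03. The acute phase gene Hp had -4.71 and Ubd, a ubiquitin-like protein induced by cytokines, -4.64. Ubd read under the filter level of 3.78 in all 6 mice on normal diet. Hspb7, a small heat shock protein of muscle, had -2.73, and Net1 had -1.59. Mpp3, a membrane scaffold protein, had 1.51 and Neat1, a nuclear non-coding RNA, 0.95.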

How the results depend on the processing

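No call reversed its direction in any alternative, and 3 of 47 calls (Tmem87a, Vamp7 and Ppp1r27) had an adjusted p under 0.05 in all that tested them. The normal diet count of 47 was 41 to 51 with other offsets, other filters, quantile normalization or only the 6 normal diet arrays. It was 22 with median centring, 26 with the mean of a gene's probe sets, 19 with no intensity trend, 90 with array weights (57.8% higher), 25 with the 3′ over 5′ covariate (60% higher), and 9 to 68 with each mouse left out. Without KO replicate 3, 44.4% of 9 calls were higher. Of the 47 genes, 47 were also called with array weights and 38 to 47 with other offsets, other filters or quantile normalization. With only the 6 normal diet arrays 27 were, with the 3′ over 5′ covariate 23, and with median centring 21. The mean of a gene's probe sets kept 19, no intensity trend 18, and each normal diet mouse left out 7 to 37. The interaction count of 16 was 10 with quantile normalization, 7 with median centring, 10 with the mean of probe sets, 1 with no intensity trend, and 4 to 31 with each mouse left out. The high fat diet count of 83, whose alternatives were chosen after seeing the data, was 163 with an offset at the 50th percentile, 41 with median centring, 7 with no intensity trend, and 15 to 237 with each mouse left out. Counts of called list members moved in 89 of 731 alternatives, with causes not tested. In the simulation most changes of 1.5-fold were missed, which limits what the uncalled genes show. No paired analysis was possible because the labels give the mice of different groups different numbers.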

Other observations

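Several housekeeping groups lay close to the median of all genes (0.02) on the normal diet. Proteasome subunits had 0 of 30 members past the limma threshold and a median difference of 0.03, and cytosolic ribosomal proteins 0 of 27 and 0.02. Autophagy and mitophagy genes had 0 of 25 and a median of -0.05, with Pink1, the kinase that marks damaged mitochondria, at 0.38 (adjusted p = 0.0947). Branched-chain amino acid breakdown had 0 of 19 and a median of 0.10, with Ivd, isovaleryl-CoA dehydrogenase, at 0.59 (adjusted p = 0.0778). Cholesterol synthesis had 0 of 15 and a median of 0.12, and Sqle, squalene epoxidase, was at 1.17 (adjusted p = 0.326). The growth axis of IGF and myostatin had 0 of 20 and a median of -0.03, with Mtor at -0.31 (adjusted p = 0.320). Imprinted growth genes had 0 of 11 and a median of 0.34. Brown adipocyte genes did not lie close to the median of all genes. Of 5 tested 0 passed, all 5 were above 0, and their median of 0.50 was the highest of the lists with 5 or more tested members. Ppargc1a and Cox8b of that list are also counted in the citric acid cycle and oxidative phosphorylation lists. Prdm16 was at 1.01 and Cidea at 0.95 (adjusted p = 0.268 and 0.278), and the KO and WT values of Cidea overlapped. Ighm, the IgM heavy chain of B cells, was at -1.44 (adjusted p = 0.0580).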
